A study of Mus musculus with 12 samples.

Results

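The expression of 32 genes that neutrophils use for their granules, surface receptors and oxidase was followed in whole lungs of 12 mouse pups. The genes were taken from the count table by symbol and placed in 7 groups by role: primary granule genes made early in the lineage, granulocyte regulators, later granule genes, cytosolic and secreted genes of mature cells, surface genes, receptors, and oxidase and leukotriene genes. They matched 33 of 52550 rows, since Itgam had 2 gene records. Of these rows, 31 were among the 15885 protein-coding genes with enough counts to be tested. Elane and the second Itgam record were not tested, and Elane is described by its counts. The lungs came from C57Bl/6J mice on postnatal day 5, either WT (Adm+/+) or Adm+/-, which are haplodeficient for adrenomedullin, a vasoactive peptide. Pups of both genotypes were injected into the peritoneum on postnatal days 3 to 5 with lipopolysaccharide (LPS), the endotoxin of the bacterial outer membrane, or with the same volume of PBS. The LPS came from Escherichia coli O55:B5, at 6 mg/kg a dose. Lungs were taken 6 h after the last of 3 doses, and each of the 4 groups held 3 mice, each sequenced as its own library. The sources name no cell type for the loss of Adm, and the RNA came from all cells of the lung. Replicates carry the library numbers of the labels and are given in the order 3, 4 and 5 for WT PBS, 9, 10 and 11 for WT LPS, 6, 7 and 8 for Adm+/- PBS, and 1, 2 and 12 for Adm+/- LPS.

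Neutrophils are made in the bone marrow in steps, and each step fills another kind of granule. Promyelocytes transcribe the genes of the primary (azurophil) granule, myelocytes and metamyelocytes turn to the secondary and tertiary granules, and mature cells carry S100 proteins, chemoattractant receptors and a ready oxidase while most primary granule transcripts have been lost. C/EBP epsilon and Gfi1 are transcription factors of this path. Endotoxin draws mature neutrophils into the lung and can also bring younger cells out of the marrow, so the early and late genes were read side by side.

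The DNA before the start of 6 of the genes is shown because 2 of them belong to the early granule (Ctsg and Elane), 2 to later granules (Ltf and Ngp) and 2 to the cytosol of mature cells (S100a8 and S100a9). The stretches are on GRCm38, 5′ to 3′ on the gene's own strand, end before the annotated start, and come from RefSeq. Capitals mark matches to TTNNGNAA or its reverse complement TTNCNNAA, a core that C/EBP proteins are known to bind.
Ctsg, chr14:56102575-56102824, minus strand: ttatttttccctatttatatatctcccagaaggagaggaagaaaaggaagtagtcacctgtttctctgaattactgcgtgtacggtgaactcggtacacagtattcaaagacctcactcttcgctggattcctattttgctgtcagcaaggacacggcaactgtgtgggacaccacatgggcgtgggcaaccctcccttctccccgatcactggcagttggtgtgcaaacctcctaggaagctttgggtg
Elane, chr10:79886062-79886246, plus strand: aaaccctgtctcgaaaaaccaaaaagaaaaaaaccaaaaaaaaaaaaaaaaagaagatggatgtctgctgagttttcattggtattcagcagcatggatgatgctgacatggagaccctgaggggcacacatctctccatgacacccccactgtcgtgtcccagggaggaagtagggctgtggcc
Ltf, chr9:111019042-111019270, plus strand: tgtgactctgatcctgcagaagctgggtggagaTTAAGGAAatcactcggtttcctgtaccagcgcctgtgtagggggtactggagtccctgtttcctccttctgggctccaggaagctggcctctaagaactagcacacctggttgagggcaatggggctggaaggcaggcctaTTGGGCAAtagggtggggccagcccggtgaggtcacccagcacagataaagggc
Ngp, chr9:110419558-110419746, plus strand: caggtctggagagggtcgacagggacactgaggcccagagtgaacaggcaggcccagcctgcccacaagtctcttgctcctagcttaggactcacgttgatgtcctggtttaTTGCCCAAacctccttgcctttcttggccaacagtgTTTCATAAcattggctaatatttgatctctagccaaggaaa
S100a8, chr3:90668821-90668977, plus strand: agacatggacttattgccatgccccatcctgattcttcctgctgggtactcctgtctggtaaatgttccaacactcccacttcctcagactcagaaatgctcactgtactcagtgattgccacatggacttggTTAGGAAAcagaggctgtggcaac
S100a9, chr3:90695722-90695971, minus strand: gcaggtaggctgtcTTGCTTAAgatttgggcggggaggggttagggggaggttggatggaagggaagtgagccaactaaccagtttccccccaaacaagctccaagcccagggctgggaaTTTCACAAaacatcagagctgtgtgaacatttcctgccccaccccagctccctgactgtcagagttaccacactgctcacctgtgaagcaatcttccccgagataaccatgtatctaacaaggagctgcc

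No match to TTNNGNAA was found in the stretches of Ctsg and Elane, 2 were found in each of Ltf, Ngp and S100a9, and 1 was found in S100a8. Over the 250 bases before the start, 17 of the 27 genes with a RefSeq window held this core on either strand (63.0%), against 36.8% of 32851 windows of the same length. Elane, Mpo, Prtn3 and Ctsg, the 4 primary granule genes, had none in these windows. Each of the 4 held AGGAAG, read on both strands as AGGAAG or CTTCCT, a core bound by PU.1. AGGAAG was present in 16 of the 27 windows (59.3%) against 29.5% of all windows, and 8 windows (29.6%, against 11.4%) held both cores. A match is a string of letters and not a measured site, and the lack of a match does not show that the protein is not bound. Cebpe, Itgb2, Trem3, Ncf4 and Alox5ap had no window here. Windows follow the RefSeq start, and the Gencode start lay far before it for Prtn3, Pglyrp1 and Cybb (-5191, -13359 and -18447 bases).

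The libraries held 22382535 to 38062873 counts (median 28494877), and 1 count was worth 0.0308 to 0.0618 CPM, the unit of level used here, in which counts are scaled to a common library size adjusted by TMM (edgeR). The non-coding gene Gm26917 took 16.6% of WT PBS replicate 5 and 13.3% of Adm+/- PBS replicate 6, against 5.42% to 7.4% elsewhere. Adm itself stood at 3.96, 7.09 and 4.57 CPM in WT PBS, 7.77, 8.15 and 4.46 in WT LPS, 4.58, 2.87 and 3.62 in Adm+/- PBS, and 3.74, 6.28 and 3.92 in Adm+/- LPS, and the log2 fold change between genotypes was -0.50 ± 0.32 (SE, adjusted p = 0.999) in PBS and -0.55 ± 0.31 (SE, adjusted p = 0.48) in LPS. The ranges of the genotypes overlapped under both treatments. Lung epithelial and endothelial genes, such as Sftpc, summed to between 14390.3 and 18451.3 CPM in all 12 libraries. Skeletal muscle genes summed to between 724 and 2017 CPM in WT LPS and to at most 55.8 CPM in the other groups, and squamous epithelial genes to 2921, 25.4 and 1500 CPM in WT LPS replicates 9, 10 and 11 against at most 40.7 CPM in the other groups. Within its group, WT PBS replicate 4 stood apart for the neutrophil genes: 29 of 31 were above the mean of its 2 group mates, by a median of 0.88 on the log2 scale, while all genes had a median of 0.01. In the same library, erythroid genes summed to 3052 CPM against 708 and 833 in its group mates (1143 to 3857 in the other groups), and the factors that recruit or expand granulocytes to 15.1 CPM against 5.55 and 5.13. Their part in its values was not tested. Without this library, 12 of the 31 WT responses to LPS moved by over 1.5 times, each of them upward, and 0 changed sign.

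LPS raised nearly the whole set in both genotypes. In WT mice 29 of 31 genes rose and 0 fell, where 10.5% of all genes rose, and in Adm+/- mice 30 of 31 rose and 0 fell, where 12.8% of all genes rose. A gene was counted when edgeR's adjusted p was below 0.05 and the absolute log2 fold change was above 0.5. The 29 genes of WT mice all rose in Adm+/- mice too. Of the 31 genes, Mpo, Ctsg and Ly6g reached the minimum level for testing (0.407 CPM in at least 3 libraries) only through LPS libraries, where they were high, so their calls are not support for a rise. Of the other 28 genes, 27 rose in each genotype, with medians of 2.94 and 3.4. The median log2 fold change of the 31 genes was 2.96 in WT and 3.54 in Adm+/- mice, beside 0.01 and -0.01 over all genes. In each genotype, 30 of 31 genes had all LPS libraries above all PBS libraries, against 18.3% of all genes in WT and 26.6% in Adm+/- mice. Gfi1 was the gene whose ranges overlapped. The 32 genes together made up 0.111% to 0.150% of the CPM in PBS libraries and 0.393% to 0.600% in LPS libraries. In bulk lung, more neutrophils and more RNA of these genes per cell cannot be told apart.

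**Figure D1:**
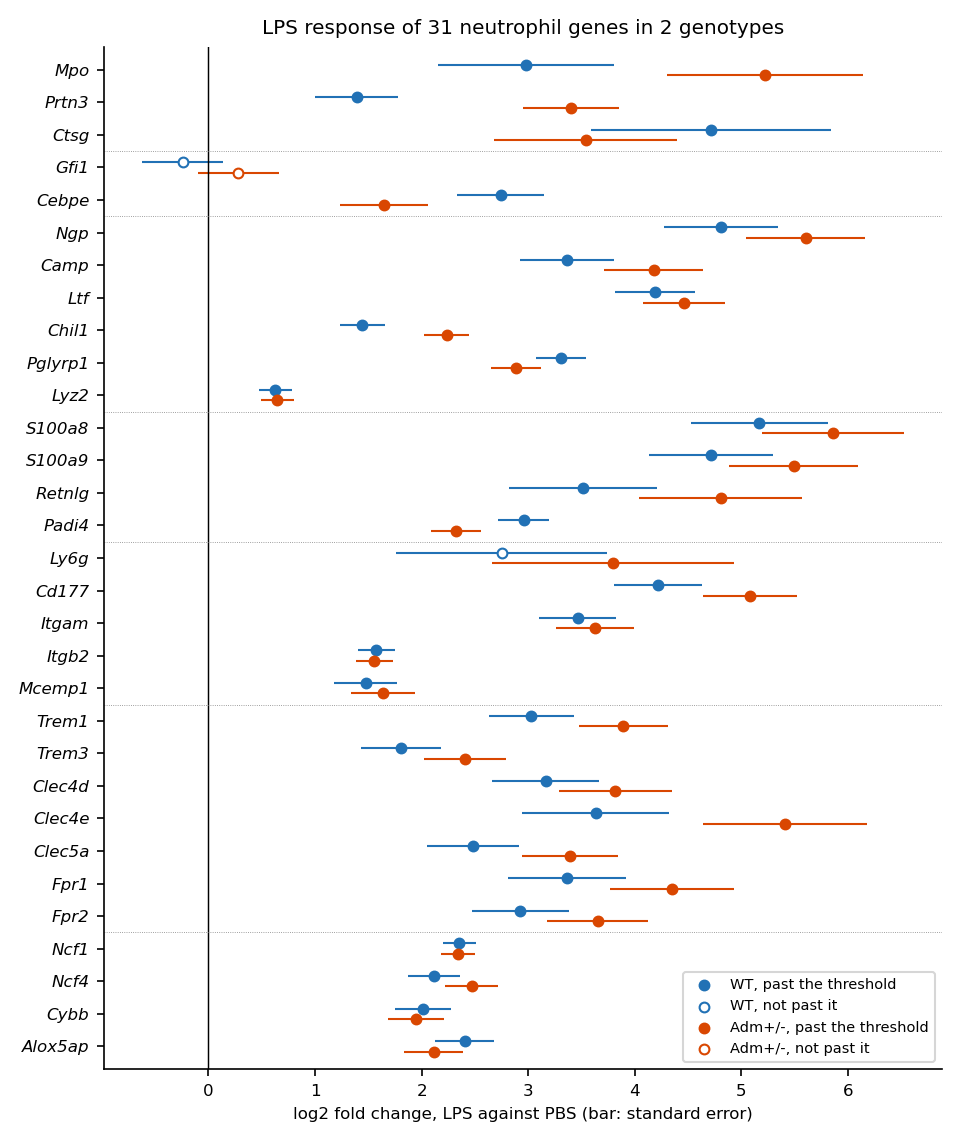
Each point is the log2 fold change of 1 gene between LPS and PBS (x axis) in WT (blue) or Adm+/- mice (orange), with its standard error, and dotted lines part the 7 role groups. Filled points passed the threshold: all but Gfi1 in both genotypes and Ly6g in WT mice.

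The primary granule genes were scarce. Mpo, Prtn3 and Ctsg rose in both genotypes, and Elane was not tested. Myeloperoxidase (Mpo, ENSMUSG00000009350, chr11:87793581-87804413), which makes hypochlorous acid, stood at 0.155, 0.388 and 0 CPM in WT PBS, 0.986, 2.54 and 1.12 in WT LPS, 0.158, 0.0338 and 0.0398 in Adm+/- PBS, and 1.12, 5.24 and 1.96 in Adm+/- LPS. All LPS libraries were above all PBS libraries, and Adm+/- LPS replicate 2 was the highest. The log2 fold change was 2.98 ± 0.82 (SE, adjusted p = 0.0258) in WT and 5.22 ± 0.92 (SE, adjusted p = 0.00154) in Adm+/- mice. In counts, 121 against 12 gave a ratio of 7.73 in WT (95% interval 4.27 to 15.4), and 210 against 5 gave 39.4 in Adm+/- mice (16.6 to 122.5), with intervals that are exact and cover counting error only. The WT call was lost without WT PBS replicate 3 (log2 fold change 2.83, adjusted p = 0.0646), without WT PBS replicate 5 (2.52, 0.0572) and without WT LPS replicate 10 (2.43, 0.0734), and the log2 fold change was 3.98 without WT PBS replicate 4. In Adm+/- mice the value ran from 4.38 without LPS replicate 2 to 6.05 without PBS replicate 6. These tests carry the limit that 0 PBS libraries reached the minimum for testing.

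Neutrophil elastase (Elane, ENSMUSG00000020125, chr10:79886247-79888215), the serine protease of the same granule, was too low for the test. Its counts were 2, 1 and 1 in WT PBS, 7, 18 and 5 in WT LPS, 0, 0 and 3 in Adm+/- PBS, and 3, 30 and 4 in Adm+/- LPS. In CPM the WT LPS libraries lay above WT PBS, while the Adm+/- ranges overlapped. The count ratio was 5.75 in WT (95% interval 2.03 to 22.5) and 11.6 in Adm+/- mice (3.66 to 58.6). Cathepsin G (Ctsg), another serine protease, stood at 0, 0 and 0.0618 CPM in WT PBS, 0.370, 1.04 and 0.279 in WT LPS, 0.105, 0 and 0.0795 in Adm+/- PBS, and 0.374, 1.05 and 0.677 in Adm+/- LPS. Its log2 fold change was 4.72 ± 1.12 (SE, adjusted p = 0.0133) in WT, from 1 count in all of WT PBS (count ratio 33.7, 95% interval 5.74 to 1362), and 3.54 ± 0.86 (SE, adjusted p = 0.00935) in Adm+/- mice (12.7, 4.67 to 48.1). The WT value ran from 3.97 without LPS replicate 10 to 6.83 without PBS replicate 5, and was 4.1 without PBS replicate 3. In Adm+/- mice it was 2.86 without PBS replicate 7. Ctsg likewise reached the minimum in 0 PBS libraries and was tested only through LPS libraries. Both genotypes showed LPS above PBS without overlap.

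Proteinase 3 (Prtn3, ENSMUSG00000057729, chr10:79874476-79883174) behaved unlike its neighbour Elane, whose record starts 3.1 kb after Prtn3 ends. Prtn3 stood at 0.466, 1.75 and 1.17 CPM in WT PBS, 3.73, 2.66 and 2.35 in WT LPS, 0.368, 0.169 and 0.318 in Adm+/- PBS, and 2.95, 2.77 and 3.17 in Adm+/- LPS. LPS libraries were alike at 2.35 to 3.73 CPM, and it was the PBS libraries that varied, with WT above Adm+/- and no overlap. The log2 fold change with LPS was 1.39 ± 0.39 (SE, adjusted p = 0.027) in WT and 3.4 ± 0.45 (SE, adjusted p = 0.000303) in Adm+/- mice. Without WT LPS replicate 9 the WT value was 1.16 and missed the threshold (adjusted p = 0.119). Prtn3 overlaps Plppr3 on the opposite strand, and reads of the 2 genes could be parted only if strand was used in counting, which the sources do not state.

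The regulators split. Cebpe, which encodes C/EBP epsilon and is needed for the secondary granule, stood at 0.311, 0.534 and 0.865 CPM in WT PBS, 4.28, 2.7 and 4.06 in WT LPS, 0.684, 0.574 and 0.278 in Adm+/- PBS, and 1.57, 1.13 and 2.07 in Adm+/- LPS. It rose by 2.74 ± 0.41 (SE, adjusted p = 0.00116) on the log2 scale in WT and by 1.65 ± 0.41 (SE, adjusted p = 0.0106) in Adm+/- mice, and the LPS libraries of the genotypes did not overlap. Gfi1, a repressor that granulocyte precursors need, stood at 0.932, 0.679 and 1.3 CPM in WT PBS, 0.986, 0.790 and 0.637 in WT LPS, 0.473, 0.777 and 0.954 in Adm+/- PBS, and 0.524, 1.13 and 1.07 in Adm+/- LPS. Its ranges overlapped in both genotypes, with a log2 fold change of -0.24 ± 0.38 (SE, adjusted p = 0.672) in WT and 0.28 ± 0.38 (SE, adjusted p = 0.614) in Adm+/- mice, neither past the threshold, and it also overlaps A430072P03Rik on the opposite strand.

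All 6 later granule genes rose in both genotypes, with a median log2 fold change of 3.34 in WT and 3.53 in Adm+/- mice. Ngp, a cystatin-like protein of the secondary granule, stood at 5.48, 20.5 and 5.19 CPM in WT PBS, 399, 286 and 190.2 in WT LPS, 8.57, 4.02 and 4.89 in Adm+/- PBS, and 242, 296 and 299 in Adm+/- LPS. Every LPS library had at least 190.2 CPM and no PBS library more than 20.5. The log2 fold change of Ngp was 4.81 ± 0.54 (SE, adjusted p = 0.000252) in WT, or 5.77 without WT PBS replicate 4, and 5.6 ± 0.56 (SE, adjusted p = 7.9e-05) in Adm+/- mice. Camp, the cathelicidin, stood at 2.45, 5.29 and 3.95 CPM in WT PBS, 48.7, 53.1 and 17.7 in WT LPS, 3.68, 1.96 and 1.63 in Adm+/- PBS, and 34.6, 48.8 and 45.7 in Adm+/- LPS. WT LPS replicate 11 was the lowest LPS library for Camp and still above every PBS library, and the log2 fold change was 3.36 ± 0.44 (SE, adjusted p = 0.000636) in WT and 4.18 ± 0.46 (SE, adjusted p = 0.000115) in Adm+/- mice. Lactoferrin (Ltf), which binds iron, stood at 12.6, 30.4 and 25.4 CPM in WT PBS, 603, 289 and 352 in WT LPS, 14.2, 9.56 and 8.19 in Adm+/- PBS, and 196, 259 and 247 in Adm+/- LPS. LPS separated from PBS in both genotypes, by 4.19 ± 0.38 (SE, adjusted p = 8.98e-05) in WT and 4.46 ± 0.38 (SE, adjusted p = 5.33e-05) in Adm+/- mice on the log2 scale, and all Adm+/- LPS libraries lay below all WT LPS libraries. Camp, Ngp and Ltf lie in this order on chromosome 9, with 570.1 and 596.3 kb between them.

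Of the other later granule genes, Pglyrp1, which binds bacterial peptidoglycan, rose by 3.31 ± 0.24 (SE, adjusted p = 2.9e-05) on the log2 scale in WT and by 2.88 ± 0.23 (SE, adjusted p = 4.78e-05) in Adm+/- mice. Chil1, a chitinase-like protein that macrophages and airway epithelium also make, stood at 188, 182 and 130.0 CPM in WT PBS, 567, 428 and 366 in WT LPS, 151, 190.3 and 144 in Adm+/- PBS, and 942, 638 and 704 in Adm+/- LPS. Its log2 fold change was 1.44 ± 0.21 (SE, adjusted p = 0.00104) in WT and 2.23 ± 0.21 (SE, adjusted p = 7.12e-05) in Adm+/- mice. Lyz2, the lysozyme of neutrophils, macrophages and type II pneumocytes, had the smallest change of the genes that passed: 0.63 ± 0.15 (SE, adjusted p = 0.0158) in WT and 0.64 ± 0.15 (SE, adjusted p = 0.0091) in Adm+/- mice. Per length (CPM per kilobase of exon) it was the highest of the set in WT PBS, at 708, ahead of Chil1 at 59.5 and S100a9 at 47. The WT call of Lyz2 was lost without WT LPS replicate 9 (log2 fold change 0.60, adjusted p = 0.0614), without WT LPS replicate 11 (0.53, 0.0517) and, as in Adm+/- mice, when tested against a change of 0.5 (adjusted p = 0.441 in WT and 0.316 in Adm+/- mice). Macrophage genes moved in the same libraries: 10 of 14 rose in WT and 9 of 14 in Adm+/- mice, their summed level was 195 to 279 CPM in PBS and 448 to 801 CPM in LPS, and Marco rose by 3.81 and 3.79 on the log2 scale. None of the 14 was at 0 in any library, and their part in the levels of Lyz2, Chil1, the integrins and the oxidase was not tested.

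**Figure D2:**
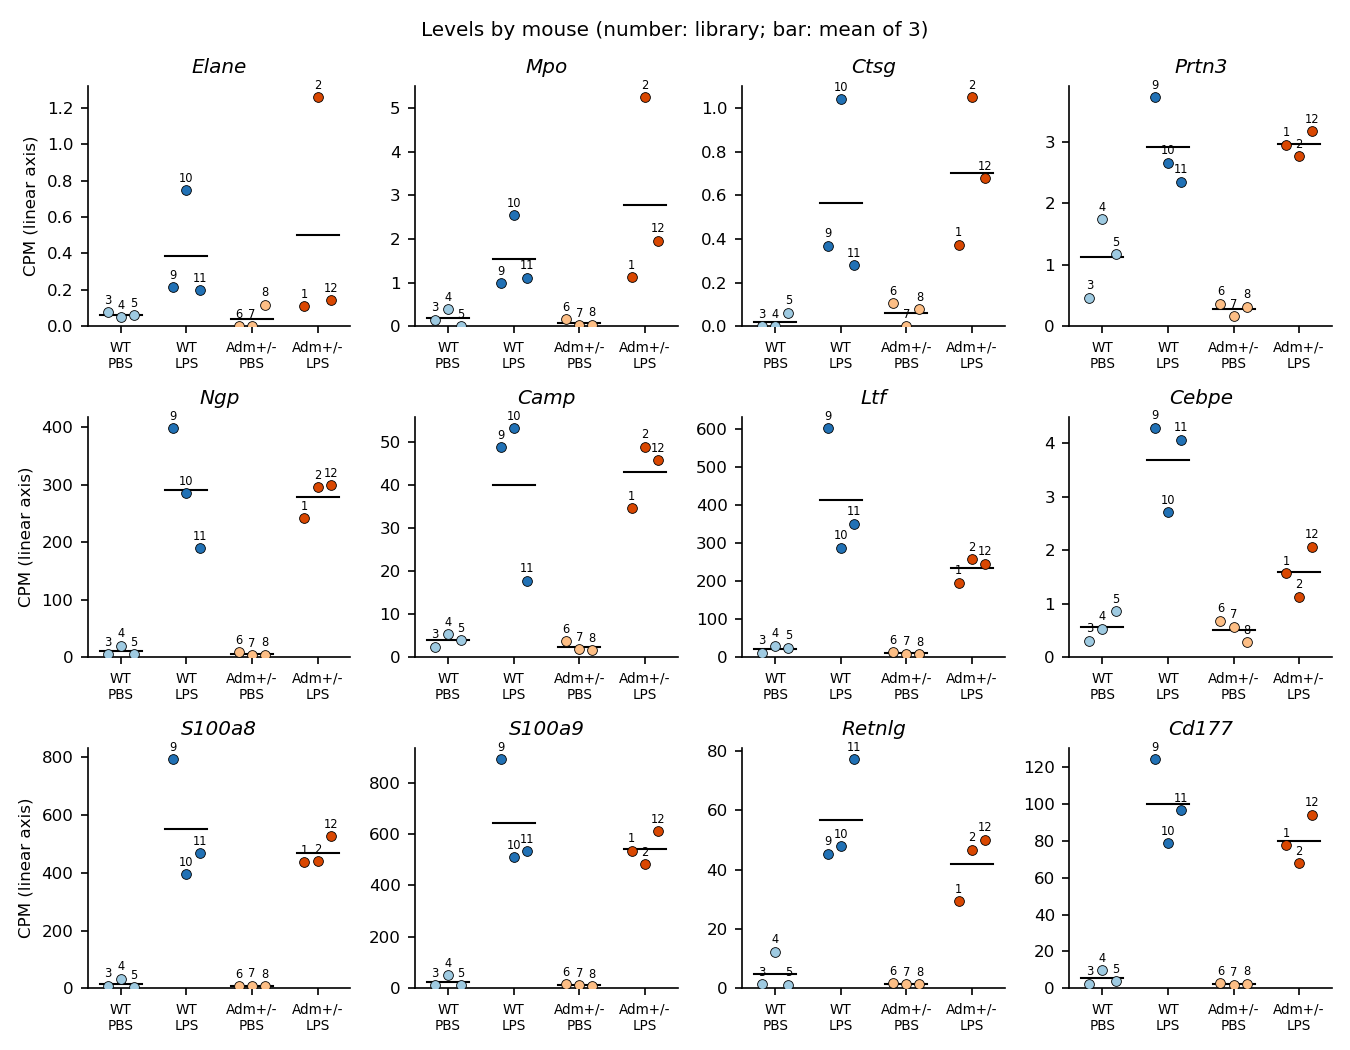
CPM of 12 genes on linear axes that start at 0, with 1 point per mouse, its library number beside it, and a bar at the mean of 3. The upper row holds the primary granule genes, where Adm+/- LPS replicate 2 reached 5.24 CPM for Mpo and 1.26 CPM for Elane, and the lower row holds genes of mature cells, where WT LPS replicate 9 led for S100a8, S100a9 and Cd177.

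The genes of mature cells had the largest changes, with medians of 4.12 in WT and 5.15 in Adm+/- mice over 4 genes, all of which rose. S100a8 (ENSMUSG00000056054, chr3:90668978-90670035), a calcium-binding alarmin, stood at 9.36, 33 and 3.58 CPM in WT PBS, 793, 396 and 469 in WT LPS, 8.0, 9.39 and 6.72 in Adm+/- PBS, and 436, 440.0 and 527 in Adm+/- LPS. WT PBS replicate 4 was the highest PBS library, and still far below the lowest LPS library. S100a8 changed by 5.17 ± 0.64 (SE, adjusted p = 0.00048) on the log2 scale in WT and by 5.86 ± 0.67 (SE, adjusted p = 0.000131) in Adm+/- mice, which ranked 74 and 38 by log2 fold change among 15885 genes. Its partner S100a9 (ENSMUSG00000056071, chr3:90692632-90695721), with which it forms calprotectin, stood at 11.5, 50.7 and 11.4 CPM in WT PBS, 890.3, 509.6 and 534 in WT LPS, 17.1, 11.8 and 7.47 in Adm+/- PBS, and 536, 482 and 612 in Adm+/- LPS. S100a9 was likewise highest in WT LPS replicate 9 and next in Adm+/- LPS replicate 12, and changed by 4.71 ± 0.58 (SE, adjusted p = 0.000468) in WT and 5.49 ± 0.61 (SE, adjusted p = 0.000115) in Adm+/- mice. The ratio of S100a9 to S100a8 counts was 1.10 to 1.29 in LPS libraries and 1.11 to 3.19 in PBS libraries. Without WT PBS replicate 4 the WT changes were 6.38 for S100a8 and 5.81 for S100a9. Squamous epithelium also makes both proteins, and its genes were highest in WT LPS replicate 9. WT LPS replicate 10 had 25.4 CPM of squamous genes and 396 CPM of S100a8. The part of squamous cells in these levels was not tested.

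Per kilobase, S100a9 was the most abundant of the set in WT LPS, at 1235, followed by Lyz2 at 1095, S100a8 at 796 and Ngp at 239. On the same scale Mpo reached 0.452, Elane 0.394 and Ctsg 0.545.

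Retnlg, a resistin-like protein secreted by mature neutrophils, stood at 1.32, 12.3 and 1.17 CPM in WT PBS, 45.4, 47.9 and 77.1 in WT LPS, 1.84, 1.32 and 1.39 in Adm+/- PBS, and 29.3, 46.7 and 50.1 in Adm+/- LPS. The PBS value of WT replicate 4 was far above its group mates, and the WT change of 3.52 ± 0.69 (SE, adjusted p = 0.00541) became 5.49 without that library. In Adm+/- mice the change was 4.8 ± 0.77 (SE, adjusted p = 0.000862). With a fit of only the 6 WT libraries Retnlg missed the threshold (log2 fold change 3.52, adjusted p = 0.0513). Padi4, the enzyme that citrullinates histones in neutrophil traps, stood at 1.75, 2.57 and 2.72 CPM in WT PBS, 17.4, 14.9 and 22.1 in WT LPS, 2.58, 2.37 and 2.11 in Adm+/- PBS, and 9.09, 11.4 and 14.6 in Adm+/- LPS. Padi4 rose by 2.96 ± 0.24 (SE, adjusted p = 4.68e-05) in WT and 2.32 ± 0.23 (SE, adjusted p = 8.02e-05) in Adm+/- mice, and its LPS libraries in Adm+/- mice all lay below those in WT mice.

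Of the 5 surface genes, 4 rose in WT and all 5 in Adm+/- mice, with medians of 2.75 and 3.63. Cd177, Itgam, Itgb2 and Mcemp1 rose in both genotypes. Ly6g, whose own value is the WT median, was tested only through LPS libraries, so its calls are not support for a rise. Cd177, a glycoprotein that pairs with proteinase 3 on the neutrophil surface, stood at 2.49, 9.85 and 3.83 CPM in WT PBS, 124, 78.8 and 96.6 in WT LPS, 2.68, 1.93 and 2.5 in Adm+/- PBS, and 77.5, 67.9 and 94.3 in Adm+/- LPS. It rose by 4.22 ± 0.41 (SE, adjusted p = 0.000129) in WT, or by 5.01 without WT PBS replicate 4, and by 5.08 ± 0.44 (SE, adjusted p = 5.41e-05) in Adm+/- mice, and the lowest LPS library, at 67.9 CPM, lay above the highest PBS library, at 9.85 CPM. Ly6g, the antigen by which mouse neutrophils are sorted, was low at 0, 0.485 and 0.0618 CPM in WT PBS, 0.709, 1.87 and 1.15 in WT LPS, 0.210, 0.0338 and 0 in Adm+/- PBS, and 0.299, 2.01 and 0.819 in Adm+/- LPS. Its WT change of 2.75 ± 0.99 (SE, adjusted p = 0.0672) missed the threshold, but passed with DESeq2 (2.78, adjusted p = 0.0392), with limma-voom (3.63, 0.0437) and without WT PBS replicate 4 (5.4, 0.0252). That was the only 1 of 12 fits without a library to call it, and the value was 2.07 (adjusted p = 0.141) without WT PBS replicate 3. The Adm+/- change of 3.8 ± 1.14 (SE, adjusted p = 0.026) was lost without Adm+/- PBS replicate 7 (3.4, 0.092) or 8 (3.21, 0.0895) and without Adm+/- LPS replicate 2 (2.92, 0.107), and was 5.48 without Adm+/- PBS replicate 6. Ly6g had 11 counts in all of WT PBS and 97 in WT LPS (count ratio 6.76, 95% interval 3.61 to 14), and near-identical Ly6 genes could share its reads.

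The 2 chains of the Mac-1 integrin, by which neutrophils and macrophages bind endothelium and complement, both rose. Itgam, the alpha chain, changed from 2.89 ± 1.04 to 32.2 ± 12.8 CPM in WT (mean ± SD, n = 3) and from 1.98 ± 0.454 to 24.8 ± 6.45 in Adm+/- mice, a log2 fold change of 3.47 ± 0.36 (SE, adjusted p = 0.000161) and 3.63 ± 0.37 (SE, adjusted p = 8.02e-05). Itgb2, the beta chain shared with other leukocyte integrins, went from 50 ± 4.0 to 149 ± 36.9 CPM and from 44.2 ± 5.11 to 129.9 ± 15.8 CPM, or 1.58 ± 0.17 (SE, adjusted p = 0.000237) and 1.55 ± 0.17 (SE, adjusted p = 0.000124). The more widely expressed chain had the higher CPM and the smaller change. The main Itgam record overlaps the second one on the same strand, so reads could be divided between them, although the second held at most 7 counts in any library. Mcemp1, a membrane protein of mast cells and neutrophils, rose by 1.48 ± 0.30 (SE, adjusted p = 0.00606) and 1.64 ± 0.30 (SE, adjusted p = 0.00199). Mast cell and basophil genes gave 0 of 8 calls in either genotype, and macrophage genes rose in 10 of 14 cases in WT and 9 of 14 in Adm+/- mice. The part of these cells in the level of Mcemp1 was not tested.

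**Figure D3:**
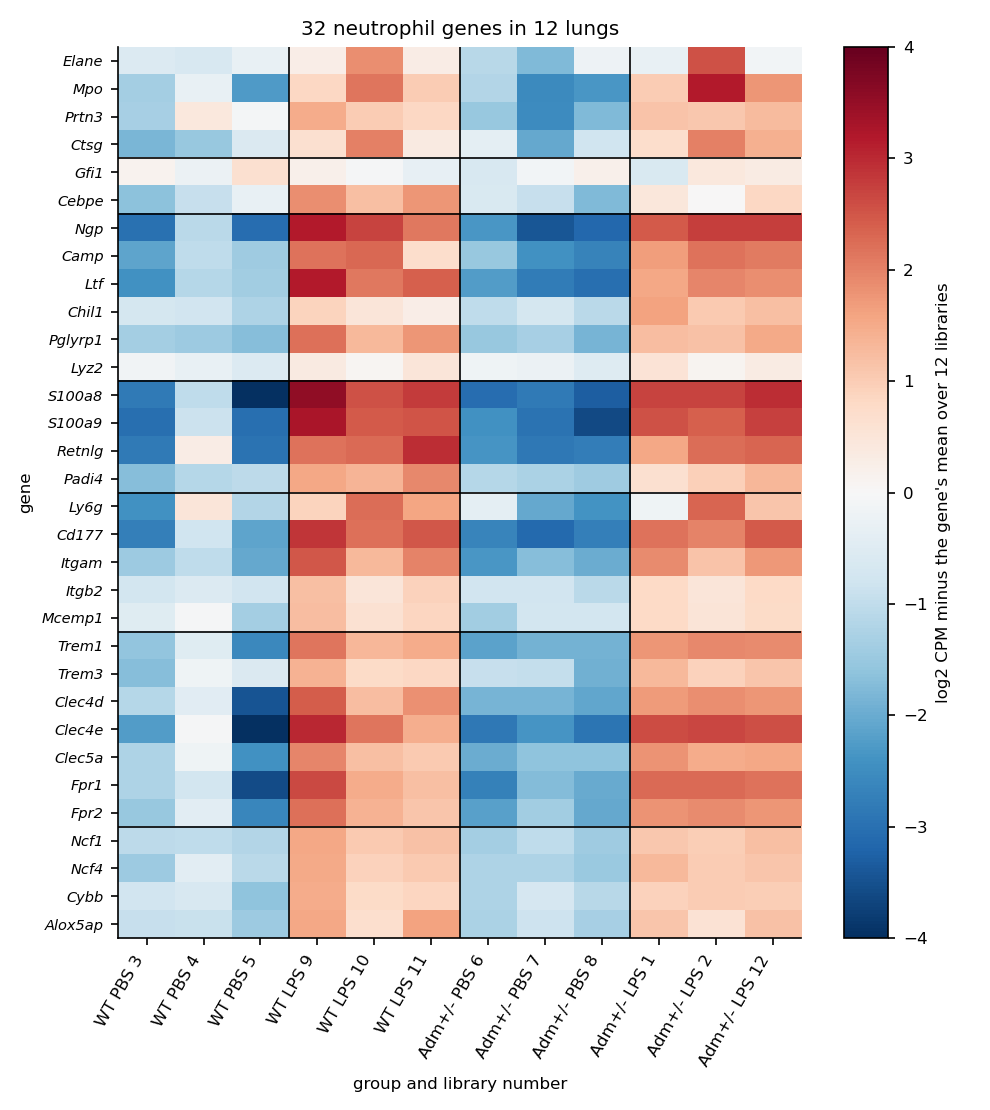
Colour gives log2 CPM of each of the 32 genes (rows, in role groups parted by lines) minus that gene's mean over 12 libraries (columns, in 4 groups). LPS columns are above the mean for nearly all rows, Gfi1 has no such pattern, and WT PBS replicate 4 is nearer to the mean than its group mates in most rows.

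All 7 receptor genes rose in both genotypes, with medians of 3.03 in WT and 3.82 in Adm+/- mice. Fpr1 and Fpr2, which sense formyl peptides of bacteria and mitochondria, lie 3.9 kb apart on chromosome 17. Fpr1 stood at 4.58, 6.5 and 0.803 CPM in WT PBS, 69.1, 30.6 and 25.2 in WT LPS, 1.58, 3.28 and 2.66 in Adm+/- PBS, and 53.7, 53.3 and 49.5 in Adm+/- LPS. Its lowest level was in WT PBS replicate 5 and its highest in WT LPS replicate 9, and it rose by 3.36 ± 0.55 (SE, adjusted p = 0.00204) in WT and 4.35 ± 0.58 (SE, adjusted p = 0.000305) in Adm+/- mice. Fpr2 rose by 2.93 ± 0.46 (SE, adjusted p = 0.00155) in WT, 3.62 without WT PBS replicate 4, and by 3.65 ± 0.47 (SE, adjusted p = 0.000261) in Adm+/- mice, and it overlaps Fpr3 on the same strand.

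Clec4e (Mincle) and Clec4d (MCL), paired C-type lectins for glycolipids of mycobacteria and fungi, lie 6.5 kb apart on chromosome 6. Clec4e stood at 1.2, 5.82 and 0.247 CPM in WT PBS, 48.6, 26.5 and 16.4 in WT LPS, 0.736, 1.11 and 0.716 in Adm+/- PBS, and 36.7, 38.2 and 36.4 in Adm+/- LPS. WT PBS libraries were far apart, from the lowest of all in replicate 5 to the highest of PBS in replicate 4. The log2 fold change of Clec4e was 3.63 ± 0.69 (SE, adjusted p = 0.00449) in WT, 5.26 without WT PBS replicate 4, and 5.41 ± 0.77 (SE, adjusted p = 0.000444) in Adm+/- mice. Clec4d rose by 3.16 ± 0.51 (SE, adjusted p = 0.00172) in WT, 3.78 without that library, and by 3.82 ± 0.53 (SE, adjusted p = 0.000381) in Adm+/- mice. The balance of the pair moved: Clec4e counts per Clec4d count were 0.689, 2.03 and 1.0 in WT PBS and 0.737, 1.06 and 0.818 in Adm+/- PBS, against 2.27, 2.84 and 1.17 in WT LPS and 2.79, 2.63 and 2.65 in Adm+/- LPS. These ratios separated by treatment in Adm+/- mice and overlapped in WT mice.

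Trem1, which amplifies inflammatory signals through DAP12, stood at 1.9, 4.08 and 0.865 CPM in WT PBS, 25.6, 14.7 and 16.3 in WT LPS, 1.21, 1.52 and 1.51 in Adm+/- PBS, and 19.9, 22 and 21.7 in Adm+/- LPS. LPS and PBS did not overlap, and the change was 3.03 ± 0.40 (SE, adjusted p = 0.000641) in WT, 3.71 without WT PBS replicate 4, and 3.89 ± 0.42 (SE, adjusted p = 9.72e-05) in Adm+/- mice. Trem3, a related receptor 0.9 kb from Trem1, rose less, by 1.81 ± 0.38 (SE, adjusted p = 0.00716) and 2.41 ± 0.39 (SE, adjusted p = 0.000882). Clec5a, another DAP12-coupled lectin, rose by 2.49 ± 0.43 (SE, adjusted p = 0.0027) in WT, 3.19 without WT PBS replicate 4, and by 3.4 ± 0.45 (SE, adjusted p = 0.000297) in Adm+/- mice.

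The oxidase genes moved evenly. Ncf1, an organiser subunit in the cytosol, stood at 17.9, 18.3 and 16.4 CPM in WT PBS, 109, 76.5 and 83.9 in WT LPS, 14.4, 18.5 and 13.8 in Adm+/- PBS, and 77.7, 73.1 and 85.8 in Adm+/- LPS. The replicates lay close together, LPS and PBS did not overlap, and Ncf1 had the smallest adjusted p of the set: the log2 fold change was 2.35 ± 0.16 (SE, adjusted p = 2.43e-05) in WT and 2.34 ± 0.16 (SE, adjusted p = 2.57e-05) in Adm+/- mice. Ncf4, a second cytosolic subunit, rose by 2.12 ± 0.24 (SE, adjusted p = 0.000303) and 2.47 ± 0.25 (SE, adjusted p = 7.9e-05), and Cybb, the catalytic membrane subunit, by 2.01 ± 0.26 (SE, adjusted p = 0.0006) and 1.95 ± 0.26 (SE, adjusted p = 0.000305). Alox5ap, which hands arachidonic acid to the lipoxygenase of leukotriene synthesis, rose by 2.4 ± 0.28 (SE, adjusted p = 0.000316) and 2.11 ± 0.28 (SE, adjusted p = 0.000266). The medians of these 4 genes were 2.24 and 2.23. Ncf1 overlaps Gtf2ird2 and Alox5ap overlaps Gm19719 on the opposite strand. The other genes of this machinery rose in 6 of 9 cases in WT and 5 of 9 in Adm+/- mice: Rac2, the neutrophil form of the GTPase, by 2.09 and 2.2, and Cyba, the partner of Cybb, by 0.73 and 0.91, while the ubiquitous Rac1 was at 0.16 and 0.10 and missed the threshold in both.

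Early and mature genes were then set against each other within a library, which removes depth. The ratio compares RNA of the whole lung and not numbers of early and mature cells, and squamous epithelium also makes S100a8 and S100a9. The counts of Elane, Mpo, Prtn3 and Ctsg together, per 1000 counts of S100a8 and S100a9, were 33.6, 26.1 and 86.4 in WT PBS, 3.15, 7.72 and 3.93 in WT LPS, 25.2, 9.55 and 39.2 in Adm+/- PBS, and 4.7, 11.2 and 5.23 in Adm+/- LPS. The ratio was lower after LPS in WT mice without overlap, and in Adm+/- mice the ranges overlapped, since LPS replicate 2 at 11.2 lay above PBS replicate 7 at 9.55. Both parts of the ratio rose with LPS, and PBS ratios rest on 6 to 45 early counts per library. Most of these counts were of Prtn3, which may share reads with Plppr3: 12 of 18, 36 of 45 and 19 of 21 in WT PBS, and 7 of 12, 5 of 6 and 8 of 14 in Adm+/- PBS. With Elane, Mpo and Ctsg alone the ratio was 11.2, 5.22 and 8.23 in WT PBS, 0.934, 4.78 and 1.59 in WT LPS, 10.5, 1.59 and 16.8 in Adm+/- PBS, and 1.66, 8.18 and 2.44 in Adm+/- LPS. It again overlapped in Adm+/- and not in WT mice, but rested on 1 to 9 counts per PBS library. The corresponding ratio for Ngp, Camp and Ltf was 672 to 2300.4 in PBS and 487 to 694 in LPS, and the ranges overlapped in WT mice (672 the lowest in PBS and 694 the highest in LPS) but not in Adm+/- mice (732 and 655).

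**Figure D4:**
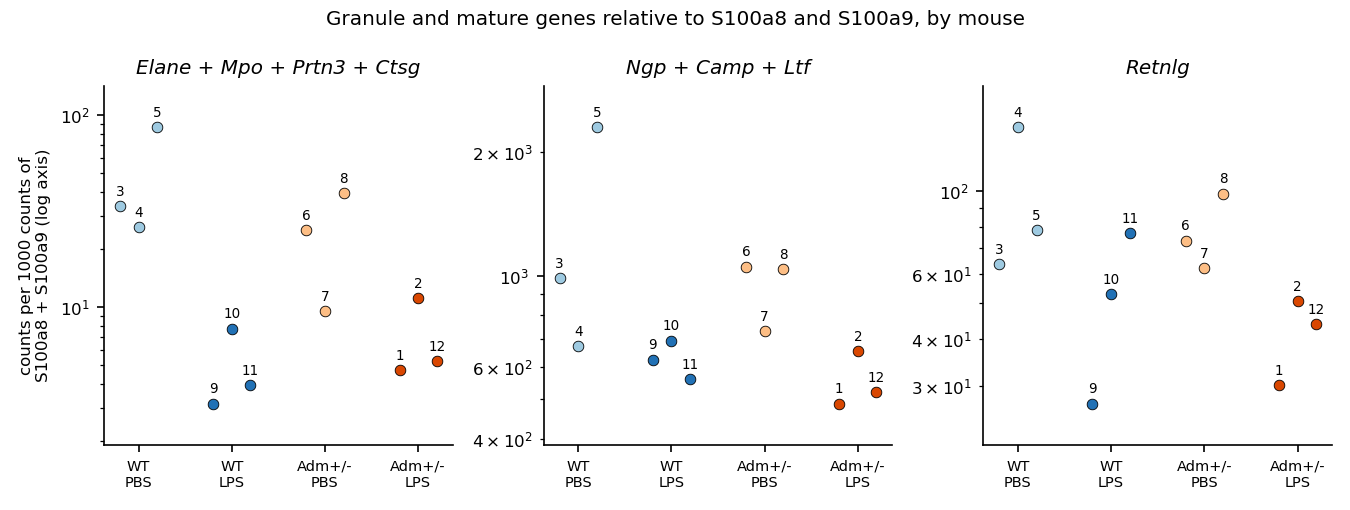
Counts of the 4 primary granule genes (left), of Ngp, Camp and Ltf (middle) and of Retnlg (right) per 1000 counts of S100a8 and S100a9 in each library, on log axes, with the library number beside each point. The left panel runs from 9.55 to 86.4 in PBS and from 3.15 to 11.2 in LPS.

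Adm+/- LPS replicate 2 was the highest of the 6 LPS libraries for Mpo, Elane and Ctsg, and also for Ly6g and Gfi1. WT LPS replicate 9 was the highest for 21 of the 32 genes, among them S100a8, S100a9, Ngp, Ltf and the early gene Prtn3. As a description over these 6 libraries, which differ in genotype and depth, log2 CPM of Mpo had a correlation of 0.87 with Elane, 0.91 with Ctsg, -0.26 with Prtn3, 0.74 with Ly6g, -0.58 with S100a9 and 0.02 with Retnlg. S100a8 had 0.97 with S100a9, 0.96 with Ncf1, 0.80 with Prtn3 and 0.04 with Retnlg. Prtn3 ran with S100a8 more closely than with Mpo over these libraries, and Retnlg, highest in WT LPS replicate 11, ran with neither. Ratios of Mpo to Prtn3 counts were 0.264 to 1.89 in LPS libraries.

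The genotypes were compared in PBS, in LPS and by the difference of their LPS responses. No gene of the set was past the threshold in any of these (0 of 31 each), where the share over all genes was 0% in PBS, 2.05% in LPS and 0.145% for the difference. At an unadjusted p under 0.05 there were 4 genes in PBS (Cd177, Prtn3, Ltf and Retnlg), 5 in LPS (Chil1, Padi4, Pglyrp1, Cebpe and Ltf) and 2 for the difference (Chil1 and Prtn3). DESeq2 called 2 genes in LPS and 0 in the others. The PBS values leaned on WT PBS replicate 4: without it, the median log2 fold change of the 31 genes between genotypes in PBS went from -0.57 to -0.05 and 10 genes changed sign. Retnlg moved from -1.72 to 0.25, Cd177 from -1.19 to -0.40, Ltf from -1.1 to -0.83 and Prtn3 from -1.99 to -1.49. Leaving out any 1 of the other libraries gave PBS medians from -0.72 (without WT PBS replicate 5) to -0.44 (without Adm+/- PBS replicate 6) over the genes then tested.

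In PBS, Prtn3 was the member whose genotypes did not overlap (4.99% of all genes did not), with Adm+/- below WT by a log2 fold change of -1.99 ± 0.48 (SE, adjusted p = 0.999) and an unadjusted p of 0.00151. In LPS the genotypes did not overlap for 4 members, where 24.6% of all genes did not. Chil1 was higher in Adm+/- LPS, by 0.75 ± 0.21 (SE, adjusted p = 0.0899); it passed with DESeq2 (0.75, adjusted p = 0.0158), without WT PBS replicate 5 (0.76, 0.0462) and without WT LPS replicate 9 (0.94, 0.0471). Cebpe was lower in Adm+/- LPS, with a log2 fold change of -1.21 ± 0.36 (SE, adjusted p = 0.111), and passed with DESeq2 (adjusted p = 0.0305). Ltf and Padi4 were also lower, at -0.83 ± 0.33 (SE, adjusted p = 0.265) and -0.63 ± 0.21 (SE, adjusted p = 0.179). WT LPS replicate 9 was above the mean of its group mates for 26 of 31 members. Without it Ltf stood at -0.45, and the median of the members went from -0.097 to 0.101 over the genes then tested. Over the fits without 1 library Cebpe ran from -1.44 to -1.01 and Padi4 from -0.82 to -0.46. Skeletal muscle and squamous epithelial genes differed between WT LPS and Adm+/- LPS, with the sums given above. Macrophage genes had a median log2 fold change of -0.49 between these groups, with 1 of 14 above 0 and 1 past the threshold as lower (2.05% of all genes passed in either direction). The part of these cells in the values of the members was not tested.

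The differences between the LPS responses, Adm+/- minus WT, were above 0 for 23 of 31 genes, with a median of 0.65 (all genes -0.01), and for all 7 receptors (0.60 to 1.77). The largest were Mpo at 2.24 ± 1.40 (SE, adjusted p = 0.819) and Prtn3 at 2.01 ± 0.60 (SE, adjusted p = 0.401), and Clec4e followed at 1.77 ± 0.98 (SE, adjusted p = 0.743). These values leaned on WT PBS replicate 4. That library was above its group mates for 29 of 31 genes, so most differences had to fall without it, and 28 of 31 did. Without it the median of the 31 genes was 0.007 over the genes then tested, 16 of the 31 were above 0, and Clec4e stood at 0.15, S100a8 at -0.52 in place of 0.69, and Retnlg at -0.69 in place of 1.29. Of the 31 differences 7 changed sign, the others being Ly6g (1.05 to -1.61), S100a9 (0.78 to -0.32), Ngp (0.79 to -0.17), Itgam (0.16 to -0.11) and Mcemp1 (0.16 to -0.16). Leaving out any 1 of the other libraries gave medians from 0.501 (without WT LPS replicate 10) to 0.88 (without WT PBS replicate 5) over the genes then tested. Without WT PBS replicate 4, Prtn3 kept 1.51 and Mpo 1.25. Mpo was tested only through LPS libraries, and Prtn3 may share reads with Plppr3. The Mpo difference also moved with other libraries, to 3.08 without Adm+/- PBS replicate 6, to 3.55 when WT PBS replicate 5 was left out as well, and to 1.4 without Adm+/- LPS replicate 2.

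**Figure D5:**
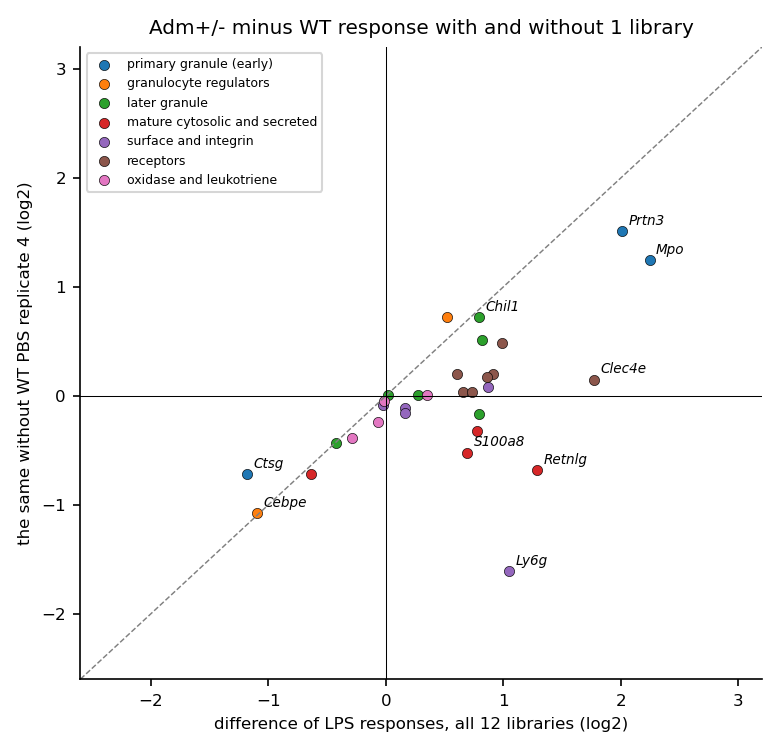
Each point is 1 of the 31 tested genes, with the difference of LPS responses (Adm+/- minus WT, log2) in the fit of all 12 libraries on the x axis and without WT PBS replicate 4 on the y axis, and the dashed line marks equal values. Of the 31 points, 23 lie right of 0 and 16 above 0. Prtn3 and Mpo stay highest, at 1.51 and 1.25, and Mpo was tested only through LPS libraries.

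Other neutrophil genes were grouped by the same roles. Of the later granule genes, 11 of 12 rose in each genotype: Olfm4 (log2 fold change 4.17 in WT and 5.67 in Adm+/- mice), Mmp9 (4.11 and 3.92), Lcn2 (3.99 and 5.43) and Mmp8 (3.86 and 4.94) were among those with the largest changes. Lcn2 and Hp are also made by epithelium. Of the genes of mature cells, 20 of 25 rose in WT and 21 in Adm+/- mice, led by the stefin BC100530 (5.3 and 6.22), the decoy receptor Il1r2 (4.99 and 6.88) and Asprv1 (5.18 and 4.94). Of the early genes 4 of 8 passed in each genotype, namely Serpinb1a, Srgn, Runx1 and Fcnb, a ficolin (3.0 and 2.27), and Srgn and Runx1 are not limited to neutrophils. Some of these genes, Fcnb and Il1r2 among them, reached the minimum for testing only through LPS libraries. Without such genes, 10 of 11 later granule genes rose in each genotype, 18 of 23 genes of mature cells in WT and 19 of 23 in Adm+/- mice, and 3 of 7 early genes in each. Ms4a3, a marker of granulocyte and monocyte precursors that was too low to test, had 1, 0 and 0 counts in WT PBS, 20, 8 and 7 in WT LPS, 0 in all of Adm+/- PBS, and 5, 12 and 10 in Adm+/- LPS.

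Genes of other cells were counted in the same way, beside 10.5% of all genes that rose in WT and 12.8% in Adm+/- mice. Of all 15885 genes, 1127 fell in WT and 1933 in Adm+/- mice. Monocyte genes rose in 4 of 10 cases in each genotype, with 1 fall in Adm+/- mice (Cx3cr1, -2.15). Eosinophil genes were near the limit of detection: 2 of 7 could be tested, Ear6 passed in both genotypes through LPS libraries alone, and Epx and Prg2 stayed below 0.4 CPM on average in every group. Erythroid genes rose in 1 of 11 cases in each genotype (Rhag), platelet genes in 1 and 3 of 8, and B cell and cartilage genes in 0 of 5 and 0 of 6. Of the 10 cell cycle genes, 0 rose and 1 fell in each genotype (Ccnb2, -0.86 and -0.66). All 10 values were below 0 in both genotypes, with medians of -0.72 in WT and -0.55 in Adm+/- mice. Skeletal muscle genes passed in 10 of 10 cases in WT and 1 of 10 in Adm+/- mice, and squamous genes in 6 of 7 and 0 of 7. Without those that needed LPS libraries to reach the minimum, the muscle counts were 7 of 7 in WT and 1 of 7 in Adm+/- mice, and the squamous counts 2 of 3 and 0 of 3. In Adm+/- mice the squamous sum was 1.39 to 1.87 CPM in PBS and 4.63 to 40.7 CPM in LPS. Lung epithelial and endothelial genes rose in 1 and 2 of 9. The factors that recruit or expand granulocytes passed in 6 of 8 cases in WT and 8 of 8 in Adm+/- mice, but 6 of the 8 reached the minimum for testing only through LPS libraries, so these counts are not support for a rise. The remaining pair, Csf2 and Il1b, rose in both genotypes. Csf3, the growth factor of granulocytes and 1 of the 6, had 1, 10 and 5 counts in WT PBS, 106, 39 and 12 in WT LPS, 3, 7 and 4 in Adm+/- PBS, and 180, 233 and 132 in Adm+/- LPS. Cxcl2, also 1 of the 6 and a ligand of Cxcr2, had 5, 19 and 1 counts in WT PBS, 501, 152 and 55 in WT LPS, 1, 0 and 0 in Adm+/- PBS, and 947, 1136 and 850 in Adm+/- LPS. None of the 8 passed in the difference of responses (0.145% of all genes did), where all 8 values were above 0. Between genotypes in LPS all 8 values were above 0 (Adm+/- over WT), with a median log2 fold change of 2.09. Of the 8, 1 passed (2.05% of all genes did), the growth factor Csf2 (1.42 ± 0.33 (SE, adjusted p = 0.0494)). Both tallies and the median include the 6 factors tested only through LPS libraries, so they are not support for a genotype difference.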

How the data were processed

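Whole-lung RNA of 12 mice was sequenced as a directional library. The authors trimmed the reads with Trim Galore, aligned them to mm10 with HISAT2 and counted them per gene with featureCounts. The deposited table holds raw counts for 52550 genes; its strand setting and annotation release are not given in the sources used here. Gene positions and exon lengths came from Gencode M21 for mm10.

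In R 4.3.3, the 15885 of 21950 protein-coding genes that passed filterByExpr were scaled by TMM and tested with edgeR 4.0.16 (quasi-likelihood F-test, a coefficient per group, 1 fit, 8 residual degrees of freedom). Calls needed a Benjamini-Hochberg adjusted p below 0.05 over all tested genes and an absolute log2 fold change above 0.5. SE is the log2 fold change divided by the root of F. DESeq2 1.42.0, limma-voom (limma 3.58.1), other filters and scalings, fits of 6 libraries and fits without each library were alternatives. Log2 CPM used a prior count of 2.

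Members and gene lists were chosen by hand from general knowledge, with earlier results of these data known. Named were all members, Adm and, per other list, abundant genes or those with large changes; Epx, Prg2, Ms4a3, Rhag, Ear6, Ccnb2, Csf2, Il1b and Cx3cr1 were named after their values were seen. No 2 libraries of a group held the same counts within sampling noise (12 pairs). Labels give 1 mouse per library but no litters, so p-values cover the spread between these mice.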

Additional observations from a re-analysis of the deposited data

How the results depend on the processing

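No paired analysis was possible because no replicate number is shared between groups. Over 21 alternatives, 24 to 30 members were called in WT and 28 to 31 in Adm+/- mice, and no LPS response of a called member changed sign. Of the single-gene LPS results, 1268 kept their side of the threshold, 20 lost it and 3 gained it; apart from the cases in the report, Prtn3 in WT missed it against a change of 0.5 (adjusted p = 0.114), with 6 libraries (0.11) and without both WT PBS replicate 5 and Adm+/- PBS replicate 6 (0.0508), and so did Mpo in WT (0.0678, 0.057 and 0.0565), Lyz2 in WT with 6 libraries (0.0635) and Ly6g in Adm+/- mice against 0.5 (0.0622). The cause was not tested. The count over all genes was 2791 in WT and 3968 in Adm+/- mice, 1001 and 1695 when tested against 0.5, and 1152 in WT with only 6 libraries, where fewer degrees of freedom remain. For the difference of responses it was 23, with DESeq2 168, with limma-voom 1 and against 0.5 13. For genotype in LPS it was 325, with DESeq2 803 (2 members) and against 0.5 133. Leaving out a library gave 1443 (without WT LPS replicate 9) to 3074 genes in WT, 3033 to 4503 in Adm+/- mice, 5 (without Adm+/- PBS replicate 7) to 65 (without WT LPS replicate 10) for the difference, and 81 (without Adm+/- LPS replicate 1) to 573 (without WT PBS replicate 5; 548 without Adm+/- PBS replicate 6 as well) with 0 to 1 members for genotype in LPS. Without WT PBS replicate 4 the difference of responses changed sign for 7 members, given in the report, among them S100a8 (-0.52, up to 1.15 without replicate 5) and Retnlg (-0.69, up to 1.86 without WT PBS replicate 5 and Adm+/- PBS replicate 6). With 3 mice a group, the SE of a difference of responses was 1.40 for Mpo and 0.60 for Prtn3, which limits what could be detected for genes at a few counts.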
